A study of Mus musculus with 64 samples.

Results

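The gene-free megabase bins are stretches of mouse autosome that overlap no protein-coding gene. The autosomes of the mm10 build were cut into 1 Mb bins from 3 Mb on, and a bin was called gene-free if no protein-coding gene body of the RefSeq gene table (GRCm38.p6) reached into it. This gave 210 bins of 2413 (8.70%), on all 19 autosomes, and left 2203 other autosomal bins for comparison. No measured value entered the choice. The measure throughout was the percent of a bin's bases that lay inside the peaks of a library.

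Gene-free does not mean without genes of any kind. Of the 210 bins, 140 held at least 1 long non-coding RNA (lncRNA) gene, with up to 13 in a bin, and 70 held none. Pseudogenes lay in 179 bins, microRNA genes in 16 bins, and 236 variable (V) segments of antigen receptor loci in 5 bins, because the gene table does not class such segments as protein-coding genes. The bins formed 149 runs, of which 103 were a single bin, 13 were 3 or more bins long and the longest were 4 bins, at 89 to 93 Mb of chromosome 14 and at 26 to 30 Mb of chromosome 18. The 15 bins with a gene-free bin on each side are called interior below, and the other 195 are called edge bins.

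Large gene-poor stretches of mammalian chromosomes are typically late replicating and packed as heterochromatin. Trimethylation of lysine 9 on histone H3 (H3K9me3) is the mark of constitutive heterochromatin and lies over repeats and gene-poor domains. Polycomb proteins silence developmental genes with a pair of marks: the PRC2 complex, of which Suz12 is a core subunit, trimethylates H3 at lysine 27 (H3K27me3), and the PRC1 complex, of which Ring1B is the catalytic subunit, attaches ubiquitin to histone H2A (H2AK119Ub). Acetylation of the same H3 lysine 27 (H3K27ac) marks active promoters and enhancers.

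All libraries came from splenic CD23+ B cells, which are mature B cells, of female F1 mus x cast mice. Their mothers were C57BL/6 with a heterozygous deletion of Xist, the RNA that silences an X chromosome, and their fathers were M. m. castaneous, so every group shares this cross, a model of skewed X inactivation. Cells were unstimulated (0 h) or stimulated with 1 uM CpG, a ligand that activates B cells through Toll-like receptor signalling, for 12 or 24 h. CUT&RUN, in which an antibody directs a nuclease to cut out the chromatin it binds, was run with antibodies to the 6 targets. At 0, 12 and 24 h there were 4, 4 and 4 peak lists for H3K9me3, 3, 3 and 4 for H3K27me3, and 4, 3 and 5 for H2AK119Ub. H3K27ac, Suz12 and Ring1B had 3 lists per time point, which makes 61 in all. The 3 IgG samples were not analysed here, so no background list stands beside these values.

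The lists carry the tag Cast, and how reads were assigned to an allele is not given in the sources used here. Sequencing depth is not given either. The lists held between 1450 and 32212 peaks, and those of the histone marks were longer at 24 h than at 0 h: 23949 to 32212 peaks at 24 h for H3K9me3, for example, against 1775 to 8899 at 0 h. Of gene-free bins 97.6%, and of other bins 98.2%, held a peak in at least 9 of the 18 Suz12 and Ring1B libraries. A single peak in a bin meets this rule, so it does not show that both kinds of bin were equally readable. At 24 h Suz12 peaks lay in every library in 69.5% of gene-free and 94.6% of other bins. For Ring1B these shares were 67.6 and 92.3%. H3K27ac peaks lay at all 8 B cell markers tested in at least 8 of 9 libraries, at the T cell genes Cd3e, Cd4 and Cd8a and the myeloid genes Lyz2, Cd14 and Mpo in none, at Cd3g in 4, Lck in 8, and Itgam and Csf1r in 3 each.

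The sequences that the marks lay on are shown first for lncRNA promoters, because these are the annotated starts of transcription that gene-free bins do hold. RefSeq gives 281 promoters (250 bases before to 50 after a start) for 244 of the 340 lncRNA genes in these bins, on 17 of the 19 autosomes. H3K9me3 peaks covered 4, 28 and 33 of the 281 in every library at 0, 12 and 24 h, and 53, 88 and 120 in at least 1 library. At 24 h these were 11.7 and 42.7% of the promoters, while H3K9me3 covered a mean of 32.5% of all gene-free bases. Promoters of other bins were not counted, so the counts do not show that the marks favour promoters. H3K27me3 covered 0, 2 and 6 in every library at those times, and H3K27ac 0, 2 and 0. H2AK119Ub covered 4, 6 and 13 in at least 1 library and 0 in every library of any time. No promoter was covered by both H3K9me3 and H3K27me3 in every 24 h library. With only 33 and 6 of 281 covered, few or none would be shared by chance, so this does not show that the marks exclude each other. A promoter or microRNA counts as covered if any of its bases lies in a peak. The first promoter below was under H3K9me3 in all 12 libraries, the second in no 0 h library and in every 12 h and 24 h library, and the last pair under H3K27me3 in every 24 h library. Each was chosen for having more CG than most promoters of its kind. Capitals mark CG, the dinucleotide that carries DNA methylation.
1190028D05Rik, chr8:52356361-52356660, plus strand: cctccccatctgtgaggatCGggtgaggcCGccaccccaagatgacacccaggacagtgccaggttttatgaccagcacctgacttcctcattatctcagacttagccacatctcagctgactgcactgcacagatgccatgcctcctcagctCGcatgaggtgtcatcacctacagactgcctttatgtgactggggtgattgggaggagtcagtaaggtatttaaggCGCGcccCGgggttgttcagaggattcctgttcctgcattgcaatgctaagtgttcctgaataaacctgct
1700028P15Rik, chr2:171962750-171963049, minus strand: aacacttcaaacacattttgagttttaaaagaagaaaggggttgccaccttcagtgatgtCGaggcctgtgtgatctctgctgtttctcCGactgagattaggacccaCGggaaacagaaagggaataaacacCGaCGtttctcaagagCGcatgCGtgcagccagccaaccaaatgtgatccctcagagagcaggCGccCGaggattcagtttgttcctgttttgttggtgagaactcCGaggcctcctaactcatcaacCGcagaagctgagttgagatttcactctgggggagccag
Gm5149, chr3:149334610-149334909, plus strand: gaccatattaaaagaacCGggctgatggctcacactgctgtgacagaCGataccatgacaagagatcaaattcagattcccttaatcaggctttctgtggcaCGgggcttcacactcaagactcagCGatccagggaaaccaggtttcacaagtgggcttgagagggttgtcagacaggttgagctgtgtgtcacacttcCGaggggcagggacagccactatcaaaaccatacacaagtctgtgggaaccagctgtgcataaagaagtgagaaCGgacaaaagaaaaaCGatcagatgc
Gm27166, chr9:33031542-33031841, plus strand: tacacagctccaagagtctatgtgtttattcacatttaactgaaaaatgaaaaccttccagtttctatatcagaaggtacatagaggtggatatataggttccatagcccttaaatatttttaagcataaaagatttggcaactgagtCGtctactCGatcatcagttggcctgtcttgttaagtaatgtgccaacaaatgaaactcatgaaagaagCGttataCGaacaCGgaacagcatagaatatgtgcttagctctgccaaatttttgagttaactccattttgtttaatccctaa
The letters CG, which read the same on both strands, were fewer in lncRNA promoters of gene-free bins than in the table at large. The median was 2 per promoter in gene-free bins, where 82.2% held at least 1, against 7 over all 32851 mouse promoters of the table, where 94.6% held at least 1. The table at large was not split by gene class, so gene class and location cannot be told apart here. The 33 promoters under H3K9me3 in every 24 h library and the 161 under it in no 24 h library had the same median of 2.

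MicroRNAs are the other genes with a known product in these bins. Of 18 microRNA genes, 17 had a sequence. H3K9me3 covered 3 of them in every 24 h library and 6 in at least 1 library, none was covered by H3K27me3, H2AK119Ub or H3K27ac in any library, and 8 were covered by no antibody. MicroRNA genes of other bins were not counted, so no share over all such genes stands beside these. The 3 under H3K9me3 at 24 h are printed first, then a pair of the miR-181 family, known from work on lymphocyte development, whose bin held no H3K9me3 peak in any 24 h library. Capitals mark the seed, bases 2 to 8, which pairs with target transcripts.
mmu-miR-6350, chr1:47467097-47467117, minus strand: uAGCAGGUgcauuauaaauau
mmu-let-7j, chr3:140028281-140028304, plus strand: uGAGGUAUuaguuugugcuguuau
mmu-miR-1187, chr5:82798964-82798986, minus strand: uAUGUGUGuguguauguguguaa
mmu-miR-181a-5p, chr1:137966468-137966490, plus strand: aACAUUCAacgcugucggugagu
mmu-miR-181b-5p, chr1:137966650-137966673, plus strand: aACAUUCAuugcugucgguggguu
The pair of miR-181 sequences shares the seed ACAUUCA, and the other 3 each have a seed of their own. miR-6350 was under H3K9me3 in 2, 4 and 4 of the 4 libraries at 0, 12 and 24 h, let-7j in 1, 4 and 4, and miR-1187 in 2, 4 and 4.

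H3K9me3 was the single mark of the 6 targets that covered more of the gene-free bins than of the rest. At 0 h it covered 4.77, 22.2, 16.0 and 10.3% of gene-free bases in the 4 libraries, against 0.593, 3.57, 2.42 and 1.41% of the other bins. At 12 h the values were 26.6, 27.5, 29.5 and 31.9% of gene-free bins, against 5.53, 5.65, 6.45 and 6.74% of other bins. At 24 h they were 31.5, 31.1, 35.8 and 31.5% of gene-free bins, against 7.15, 6.97, 8.36 and 7.26% of other bins. Every library lay far above its own value for the other bins, and the 0 h libraries differed among themselves more than those of the later times. Over all 12 libraries coverage of gene-free bins was 5.24-fold that of other bins (log2 ratio 2.39; exact two-sided sign-flip test over libraries, adjusted p = 0.00146 over the 6 antibodies, the smallest that 12 libraries allow). Gene-free bins, 8.70% of the bins, held 40.2, 31.2 and 29.5% of all autosomal bases under H3K9me3 peaks at 0, 12 and 24 h. Set against only the 277 gene-containing bins that touch a gene-free bin, the log2 ratio was 0.95, with the same adjusted p of 0.00146.

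**Figure D1:**
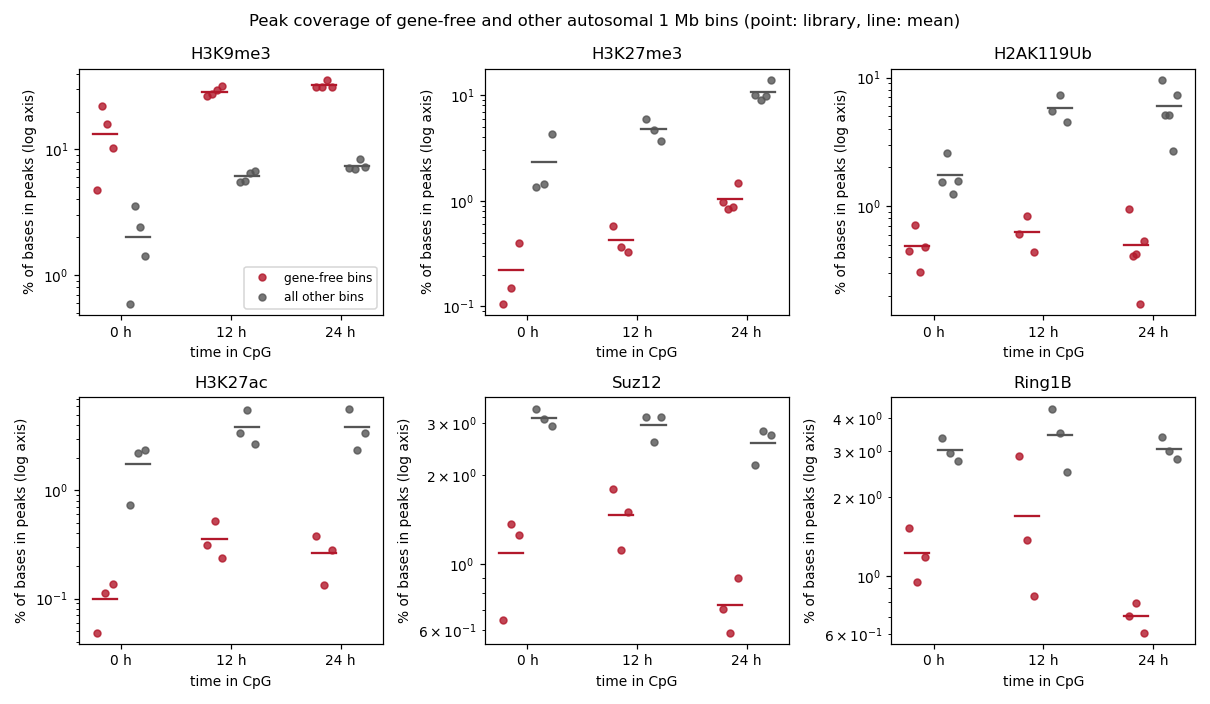
Percent of gene-free and other autosomal bins covered by peaks in each of the 61 libraries, by antibody and time (log axis, one point per library). H3K9me3 points of gene-free bins, between 4.77 and 35.8%, lie above those of other bins, and for the other 5 antibodies they lie below.

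The Polycomb marks covered little of the gene-free bins. H3K27me3 covered 0.106, 0.148 and 0.402% of them at 0 h, 0.575, 0.365 and 0.324% at 12 h and 0.974, 0.845, 0.881 and 1.46% at 24 h. The other bins were covered to 1.34 to 4.27% at 0 h, 3.66 to 5.95% at 12 h and 9.09 to 14.0% at 24 h, so gene-free coverage was 9.45% of that of other bins (log2 ratio -3.40, lower in 10 of 10 libraries, exact sign-flip adjusted p = 0.00391). H2AK119Ub covered 0.450, 0.712, 0.305 and 0.480% of gene-free bins at 0 h, 0.600, 0.830 and 0.442% at 12 h and 0.949, 0.405, 0.421, 0.174 and 0.531% at 24 h. Its coverage of the other bins was 1.23 to 2.597%, 4.52 to 7.25% and 2.68 to 9.61% at the 3 times, and gene-free coverage was 13.2% of it (log2 ratio -2.92, lower in 12 of 12 libraries, exact sign-flip adjusted p = 0.00146). No library of either mark had as much coverage in gene-free as in other bins.

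H3K27ac, the active mark, was the scarcest. It covered 0.0484, 0.112 and 0.136% of gene-free bins at 0 h, 0.315, 0.524 and 0.238% at 12 h and 0.380, 0.133 and 0.278% at 24 h. Other bins had 0.739 to 5.70% over the 9 libraries, and gene-free coverage was 7.55% of theirs (log2 ratio -3.73, lower in 9 of 9 libraries, exact sign-flip adjusted p = 0.00391).

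The Polycomb subunits were depleted in gene-free bins as well. Suz12 peaks covered 0.589 to 1.79% of gene-free bins, against 2.16 to 3.35% of other bins, which is 36.1% of their coverage (log2 ratio -1.47). Ring1B peaks covered 0.610 to 2.86% of gene-free bins, against 2.49 to 4.34% of other bins, which is 34.6% (log2 ratio -1.53). Both were lower in 9 of 9 libraries (exact sign-flip adjusted p = 0.00391 each). These 18 lists were called with other settings than those of the histone marks, with a fixed top share of 0.01 of regions per the file names, so their depth of depletion was not compared with that of the marks. Between the subunits the log2 ratios differed by 0.06, less than their spread (exact permutation test within times, p = 0.75).

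Among the histone marks, whose file names give the same calling setting, the log2 ratio of H3K9me3 stood apart: H3K27me3 minus H3K9me3 was -5.80, H2AK119Ub minus H3K9me3 was -5.27 and H3K9me3 minus H3K27ac was 6.12 (exact permutation tests within times, 7 pairs of antibodies, adjusted p between 2.27e-05 and 5.44e-05). With all times pooled, the 3 depleted marks were ranked by the same test, with H2AK119Ub least depleted: H3K27me3 was 0.52 below H2AK119Ub (adjusted p = 0.0201) and 0.32 above H3K27ac (adjusted p = 0.0121), and H2AK119Ub was 0.84 above H3K27ac (adjusted p = 0.000804). The order was not that of every time. The mean ratio of H3K27me3 was 0.0921, 0.0878 and 0.0961 at 0, 12 and 24 h, against 0.280, 0.107 and 0.0796 for H2AK119Ub, so that H2AK119Ub was the more depleted of the pair at 24 h, and against 0.0581, 0.0924 and 0.0683 for H3K27ac, which was the less depleted of that pair at 12 h. These differences within a time were not tested. The pooled ranking did not hold when only the stronger peaks of each list or lists of equal length were used: the order of H3K27me3 and H3K27ac then turned round, at -0.10 and -0.02, and neither of the other differences passed the test. The lists also differed in signal scale. Their smallest signal unit was 1 for H3K9me3 and H2AK119Ub, 0.743 to 3.40 for H3K27ac and 0.326 to 1.004 for H3K27me3. Whether this moved the ratios was not tested.

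The contrast was a gradient rather than a step at the first gene. Bins were sorted by protein-coding genes into classes of 0 (210 bins), 1 (285 bins), 2 to 4 (511 bins), 5 to 9 (614 bins) and 10 or more (793 bins). H3K9me3 at 24 h covered 32.5 ± 2.22, 23.7 ± 1.73, 11.6 ± 1.03, 3.73 ± 0.37 and 1.86 ± 0.19% of these classes (SD, n = 4). Its coverage fell at every step in 12 of 12 libraries. The other targets went the other way, with a rise at every step in 10 of 10 H3K27me3, 11 of 12 H2AK119Ub and 9 of 9 libraries each of H3K27ac, Suz12 and Ring1B.

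**Figure D2:**
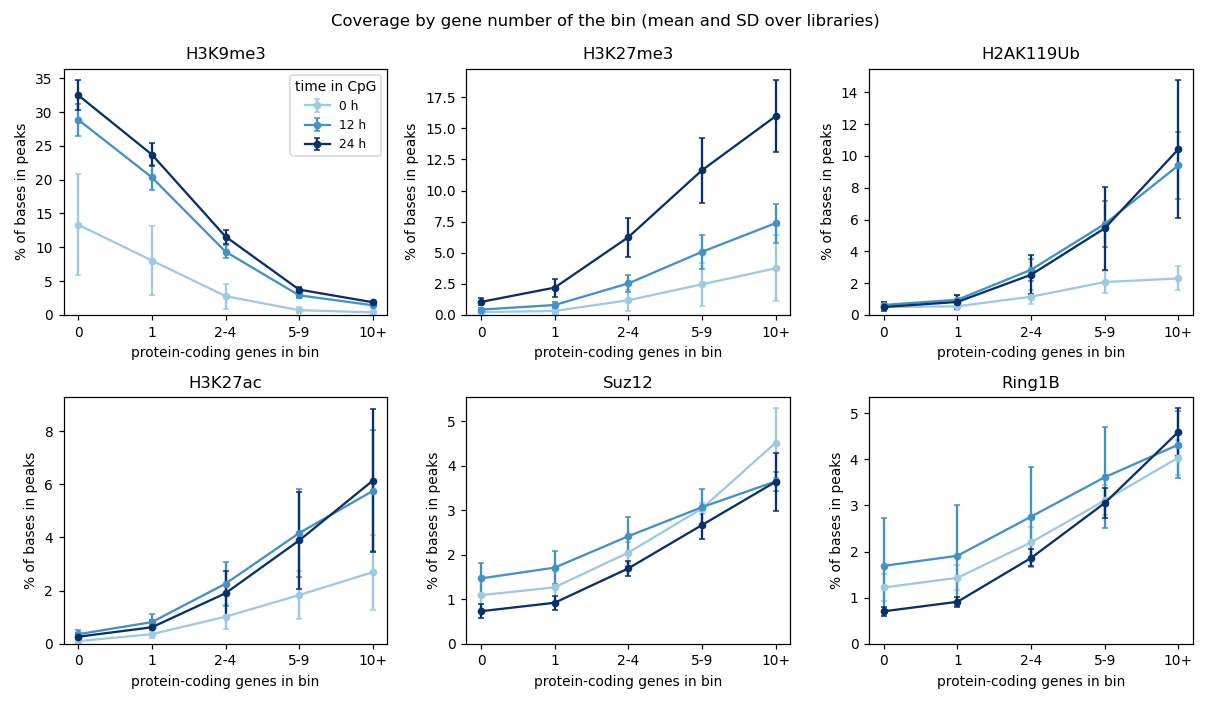
Mean percent of bins covered by peaks, by number of protein-coding genes in the bin, for each antibody and time (error bars, SD over libraries). H3K9me3 drops at each class, to 1.86% at 24 h in bins with 10 or more genes, and the other 5 antibodies climb.

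Distance from genes and the presence of an lncRNA gene divided the gene-free bins further. Interior bins had more H3K9me3 than edge bins in 12 of 12 libraries, with 33.2 ± 12.1% against 24.2 ± 9.49% (SD over 12 libraries of all 3 times, n = 12 each), a 1.39-fold difference (log2 0.47, exact sign-flip adjusted p = 0.00146). H3K27me3, H2AK119Ub and H3K27ac had no peak in the 15 interior bins in any of their 10, 12 and 9 libraries, against means of 0.655, 0.565 and 0.259% in edge bins. These marks reached 42, 30 and 24 of the 210 bins in any 24 h library, so their absence from 15 bins is given as a description, with no test. Suz12 covered 0.862 ± 0.422% of interior and 1.11 ± 0.419% of edge bins, and Ring1B 0.941 ± 0.596% of interior and 1.22 ± 0.700% of edge bins (SD, n = 9 each). Both subunits were lower in the interior in 9 of 9 libraries (log2 -0.50 and -0.46, exact sign-flip adjusted p = 0.00391 each). The tests of interior against edge bins are over libraries, which share the same 15 interior bins. They do not measure the spread among bins.

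The 140 bins with an lncRNA gene had less H3K9me3 and more of each other target than the 70 without. H3K9me3 covered 22.9 ± 9.31% of bins with and 28.9 ± 10.4% of bins without an lncRNA gene (SD, n = 12 each), lower in 12 of 12 libraries (log2 -0.39, exact sign-flip adjusted p = 0.00146). H3K27me3 covered 0.796 ± 0.583% of bins with against 0.234 ± 0.120% of bins without one (SD, n = 10 each, log2 1.50). H2AK119Ub covered 0.665 ± 0.287% of bins with against 0.244 ± 0.113% of bins without one (SD, n = 12 each, log2 1.47). H3K27ac covered 0.348 ± 0.213% of bins with and 0.0251 ± 0.0295% of bins without one (SD, n = 9 each, log2 3.52), and in 3 of 9 libraries it was at 0 in the bins without one. Suz12 and Ring1B were higher by log2 0.42 and 0.44. Each of these 5 was higher in every library, with adjusted p of 0.00146 for H2AK119Ub and 0.00391 for the other 4 by the exact sign-flip test. That test is over libraries, which share the same bins, and few bins carried these values. At 24 h H3K27me3 lay in 35 of the bins with and 7 of those without an lncRNA gene, H2AK119Ub in 25 and 5, and H3K27ac in 21 and 3. The 3 fullest bins held 35.9% of the H3K27me3, 56.6% of the H2AK119Ub and 64.1% of the H3K27ac coverage of bins with an lncRNA gene, and 87.9, 97.7 and 100% of that of bins without one.

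From bin to bin, H3K9me3 was broad and the other histone marks were confined to few bins. At 24 h H3K9me3 peaks lay in 199 of 210 bins in every library and in 8 bins in none. Its median coverage was 35.1% of a bin, with 10% of bins under 3.02%, 10% over 54.0% and the highest at 65.3%. At 0 h it lay in 128 bins in every library and in 23 in none, with a median of 12.6%. The median other bin was covered to 0, 0.138 and 0.401% at 0, 12 and 24 h. H3K27me3, in contrast, was absent from 191, 183 and 168 gene-free bins at 0, 12 and 24 h, H2AK119Ub from 189, 183 and 180, and H3K27ac from 197, 186 and 186. At 24 h the 10 fullest bins held 75.3% of the H3K27me3, 81.4% of the H2AK119Ub and 91.5% of the H3K27ac coverage of all gene-free bins, and 8.81% of the H3K9me3. Suz12 peaks lay in 172, 198 and 146 bins in every library at the 3 times and Ring1B peaks in 188, 183 and 142, with medians of 0.511 to 1.58% of a bin.

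Bins with H3K27me3 held less H3K9me3 than bins without it. The 25 bins with H3K27me3 in every 24 h library had a median H3K9me3 coverage of 1.82% at 24 h, while the 168 bins without it in any library had a median of 38.1%. The marks did share bins: 19 of the 25 had H3K9me3 in every 24 h library, and 8 were covered by it to 10% or more, with a maximum of 30.4%. Of the 25, none was interior and 20 held an lncRNA gene, and 13 had H2AK119Ub and 10 had H3K27ac in every 24 h library. Among the 168, all 15 interior bins were found, 105 held an lncRNA gene, and no bin reached over 0.672% H2AK119Ub or 0.218% H3K27ac. A further 17 bins had H3K27me3 in some of the libraries, with a median H3K9me3 of 15.0%. Across the 210 bins at 24 h, Pearson's r of H3K9me3 with H3K27me3 was -0.44 (Spearman's rho -0.53), and that of H3K27me3 with H2AK119Ub was 0.64 (rho 0.79). In the 2203 other bins r was -0.475 (rho -0.62) and 0.657 (rho 0.81), so neither relation is particular to gene-free bins. These correlations describe bins of the same libraries, which are not independent, so no p is given.

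At the level of bases H3K27me3 and H3K9me3 were nearly separate, in gene-free and in other bins. Counting a base as marked if at least 2 libraries of a time covered it, H3K27me3 marked 2370 kb of gene-free sequence at 24 h, of which 27.4% was also H2AK119Ub and 1.23% also H3K9me3, although H3K9me3 covered 37.1% of all these bases. H2AK119Ub marked 1308 kb, of which 49.6% was also H3K27me3 and 14.7% also H3K27ac. H3K27ac marked 462 kb, of which 41.6% was also H2AK119Ub and 0.0645% also H3K9me3. At 0 h H3K27me3 marked 367 kb, of which 72.3% was also H2AK119Ub and none also H3K9me3. In the other bins 0.0115% of H3K27me3 bases at 0 h and 0.124% at 24 h were also H3K9me3. H3K9me3 covered 2.22 and 8.50% of the bases of those bins.

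**Figure D3:**
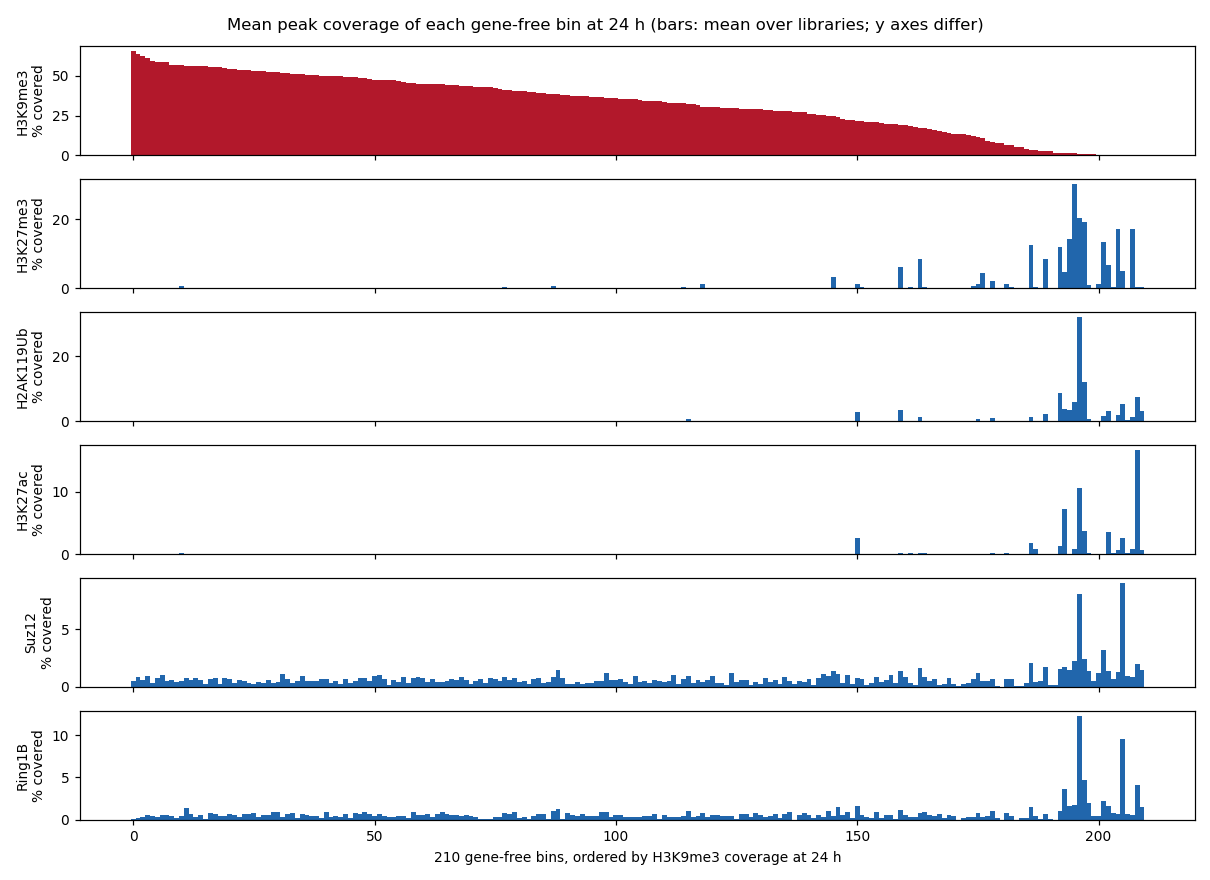
Mean percent covered at 24 h in each of the 210 gene-free bins, for the 6 antibodies. H3K9me3 spreads over most bins up to 65.3%, and H3K27me3, H2AK119Ub and H3K27ac are at 0 in 168, 180 and 186 bins.

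The 8 gene-free bins without H3K9me3 at 24 h had lymphoid loci among them. They lay at 137 Mb of chromosome 1, between the nuclear receptor gene Nr5a2 and Ptprc, which encodes CD45, and holding the miR-181 genes above; at 16 Mb of chromosome 10, between Nmbr and Cited2; at 25 Mb of chromosome 11, between Bcl11a and Fancl; at 114 and 115 Mb of chromosome 12, in the immunoglobulin heavy chain V segments; at 53 Mb of chromosome 14, in the T cell receptor alpha V segments; at 62 Mb of chromosome 15, between Myc and Gsdmc; and at 55 Mb of chromosome 18, between Zfp608 and Gramd3. These bins were picked for that absence, so it carries no test.

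Chromosomes differed in level but not in direction. At 24 h H3K9me3 covered between 10.8% (chromosome 9, 5 gene-free bins) and 42.6% (chromosome 16, 11 bins) of the gene-free bins of a chromosome. It was above the other bins on each of the 19 autosomes, from 2.67-fold on chromosome 4 to 19.5-fold on chromosome 19, which had 2 gene-free bins.

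The bins with V segments carried an outsized share of the Polycomb marks. The 5 bins, at 68 and 69 Mb of chromosome 6 (immunoglobulin kappa), 114 and 115 Mb of chromosome 12 and 53 Mb of chromosome 14, held 42.1, 27.4 and 24.9% of the H3K27me3 coverage of gene-free bins at 0, 12 and 24 h, and 48.7, 31.6 and 45.6% of the H2AK119Ub coverage. The bin at 68 Mb of chromosome 6, with 27 V segments, was the fullest of all for H2AK119Ub, with 31.6, 39.7, 22.3 and 30.4% at 0 h, 23.8, 27.2 and 15.5% at 12 h and 49.8, 27.5, 30.3, 17.6 and 34.9% at 24 h. The times overlapped. A stretch of 39.9 kb, chr6:68307689-68347568 within the kappa V segments, was covered in every 24 h library of H2AK119Ub, and chr6:68307574-68349409, 41.8 kb long, in every 24 h library of H3K27me3. The same bin was among the 3 fullest for H3K27me3, H3K27ac, Suz12 (8.43, 7.75 and 8.05% at 0, 12 and 24 h) and Ring1B (10.7, 11.4 and 12.3%). Immunoglobulin V segments undergo rearrangement in B cells, so the deposited positions refer to the unrearranged reference. Without the 5 bins the depletion of H2AK119Ub was deeper, at log2 -3.73 in place of -2.92, and passed the same test.

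The change over CpG stimulation was first asked as a ratio within each library, which sets the gene-free bins against the other bins of the same list. The ratio still moved with the length of a list: the 4 H3K9me3 libraries at 0 h had ratios of 8.03, 7.29, 6.61 and 6.22 with 1775, 3724, 5792 and 8899 peaks. The gene-free to other ratio of H2AK119Ub was 0.247 to 0.306 at 0 h, 0.0977 to 0.114 at 12 h and 0.0649 to 0.0987 at 24 h. All 4 unstimulated libraries lay above all 8 stimulated ones, and the 24 h ratio was 28.5% of that at 0 h (log2 -1.81; exact permutation of libraries over times, adjusted p = 0.000433 over 6 antibodies; 24 h against 0 h alone, adjusted p = 0.0476). The H3K9me3 ratio was 6.22 to 8.03 at 0 h, 4.57 to 4.86 at 12 h and 4.28 to 4.46 at 24 h, with no overlap between any of the times. The 24 h ratio was 62.8% of that at 0 h (log2 -0.67, adjusted p = 0.000519 by the same exact permutation test; 24 h against 0 h alone, p = 0.0286, the smallest that 4 against 4 allow, adjusted p = 0.0857). For both marks the other bins gained more coverage than the gene-free bins did, relative to their own 0 h level.

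**Figure D4:**
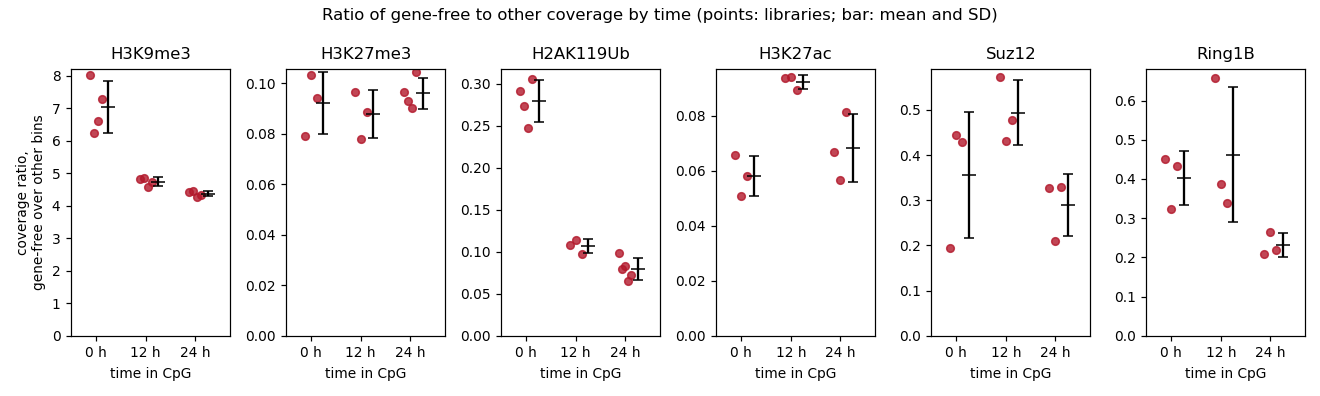
Ratio of percent covered in gene-free bins to that in other bins, per library, by time after CpG (linear axes from 0, which differ between panels; bars, mean and SD). The H2AK119Ub ratios are 0.247 or more at 0 h and 0.114 or less later, and the H3K9me3 ratios 6.22 or more at 0 h and 4.86 or less later.

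The lists themselves changed with time as well. The lowest peak height listed, counted in steps of the smallest signal unit of a list, was 9 to 10 at 0 h, 6 to 7 at 12 h and 5 to 7 at 24 h for H3K9me3, and 9 to 10, 5 to 6 and 4 to 6 for H2AK119Ub. Median peak length in gene-free bins was 11645 to 12703 bp at 0 h and 5475 to 7785 bp later for H3K9me3. For H2AK119Ub it was 11596 to 13358 bp at 0 h, 6757 to 7110 bp at 12 h and 4826 to 7910 bp at 24 h. With the minimum height matched across times, the ratios averaged 7.04, 4.83 and 4.52 at 0, 12 and 24 h for H3K9me3 and 0.280, 0.0943 and 0.0721 for H2AK119Ub, and with lists cut to equal length 7.75, 6.78 and 6.33 and 0.304, 0.0792 and 0.0492. All 4 trends passed the test.

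The ratios of the other 4 targets did not pass it. Over the 3 times the exact permutation adjusted p was 0.52 for H3K27me3, 0.0857 for H3K27ac, 0.189 for Suz12 and 0.0714 for Ring1B. Their log2 changes from 0 to 24 h were 0.00, 0.13, -0.24 and -0.79. None passed for 24 h against 0 h alone (exact permutation adjusted p = 0.72 for H3K27ac and Suz12, and 0.2 for Ring1B). The H3K27me3 ratio was 0.0789 to 0.103 at 0 h, 0.0780 to 0.0967 at 12 h and 0.0903 to 0.104 at 24 h, with all times overlapping, while its coverage rose in both kinds of bin.

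As plain coverage, H3K27me3 in gene-free bins rose with time, at 0.219 ± 0.160% at 0 h (SD, n = 3), 0.421 ± 0.135% at 12 h (SD, n = 3) and 1.04 ± 0.29% at 24 h (SD, n = 4), 5.22-fold over the 24 h (log2 2.39, exact permutation adjusted p = 0.00714). The smallest signal unit of the H3K27me3 lists was 0.326 to 1.004 at 0 and 12 h and 1 in every 24 h list. This difference between lists and time cannot be told apart. H3K9me3 rose as well. Its coverage was 13.3 ± 7.49% at 0 h, 28.9 ± 2.37% after 12 h and 32.5 ± 2.22% after 24 h (SD, n = 4 per time). It passed over the 3 times (exact permutation adjusted p = 0.00416), and mean log2 coverage rose by 1.50 from 0 to 24 h, or 2.82-fold. For 24 h against 0 h alone the adjusted p was again 0.0857. H2AK119Ub averaged 0.487, 0.624 and 0.496% at 0, 12 and 24 h (log2 change from 0 to 24 h -0.10, exact permutation adjusted p over the 3 times 0.643). The values that follow are also log2 changes from 0 to 24 h with the adjusted p over the 3 times. With lists of equal length neither rise passed (H3K27me3 log2 0.98, adjusted p = 0.184, and H3K9me3 log2 0.12, adjusted p = 0.762), while H2AK119Ub fell (log2 -2.31, adjusted p = 0.000216). Counted as peaks per Mb, H2AK119Ub rose (log2 0.96, adjusted p = 0.0361). The rises are therefore of what the lists cover, and whether the amount of mark per cell changed was not tested.

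Single bins were tested with limma across all autosomal bins, with p-values adjusted over all bins tested per antibody. Here and for the bins named below, each limma adjusted p is of the F-test over the 3 times. The differences and SE printed beside it are of 24 h minus 0 h. That contrast has no adjusted p of its own and was used unadjusted. For H3K9me3, 200 gene-free bins had a peak in at least 3 libraries, and 198 of them changed, against a background of 90.9% of all 1358 bins tested. All 198 were higher at 24 h than at 0 h (background 90.6%), 193 already at 12 h (79.3%), and 39 rose further between 12 and 24 h (36.2%), while 0 fell in that interval (0.0736%). The median change was 22.5 percentage points in gene-free bins and 9.64 over all bins. For H3K27me3, 31 gene-free bins were tested and 21 were higher at 24 h than at 0 h, against 93% of 1935 bins, with median changes of 3.11 points in gene-free and 8.30 over all bins. Only 2 of the 31 were higher at 12 h than at 0 h (background 7.13%), and 18 were higher at 24 h than at 12 h (85.4%). As given above, the H3K27me3 lists of 24 h differed from the earlier ones in signal unit. For H2AK119Ub, 27 were tested and 13 changed, against 58% of 1755 bins. At 24 h 6 were higher than at 0 h, against 53.5%, and 4 lower, against 0.912%. At 12 h 6 were higher than at 0 h (49%) and 3 lower (0.456%), and between 12 and 24 h 0 rose (3.19%) and 3 fell (2.68%). Without the 24 h library of replicate 5, 8 changed and 3 were higher at 24 h than at 0 h. Bins enter this test only if peaks reached them in some group, so these counts do not describe all 210 bins. When each library was first scaled to its total coverage, 58 gene-free bins were higher and 81 lower for H3K9me3, 10 higher and 1 lower for H3K27me3, and 6 higher and 12 lower for H2AK119Ub. Scaled values compare a bin's share of all bases covered in a library. They are not percent of a bin and can exceed the whole bin. A fall on this scale is a smaller share, not less coverage.

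For H3K27ac, 0 of 22 gene-free bins tested passed, against 0% of 1673 bins, and 5 gene-free bins (22.7%) and 352 of all bins (21.04%) had an unadjusted p under 0.05. For Suz12 0 of 210 passed, against 0.0836% of 2393 bins, and for Ring1B 0 of 206, against 0% of 2384 bins. At an unadjusted p under 0.05 there were 49 of 210 for Suz12 (23.3%, against 15.9% of all bins tested) and 17 of 206 for Ring1B (8.25%, against 8.35%).

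**Figure D5:**
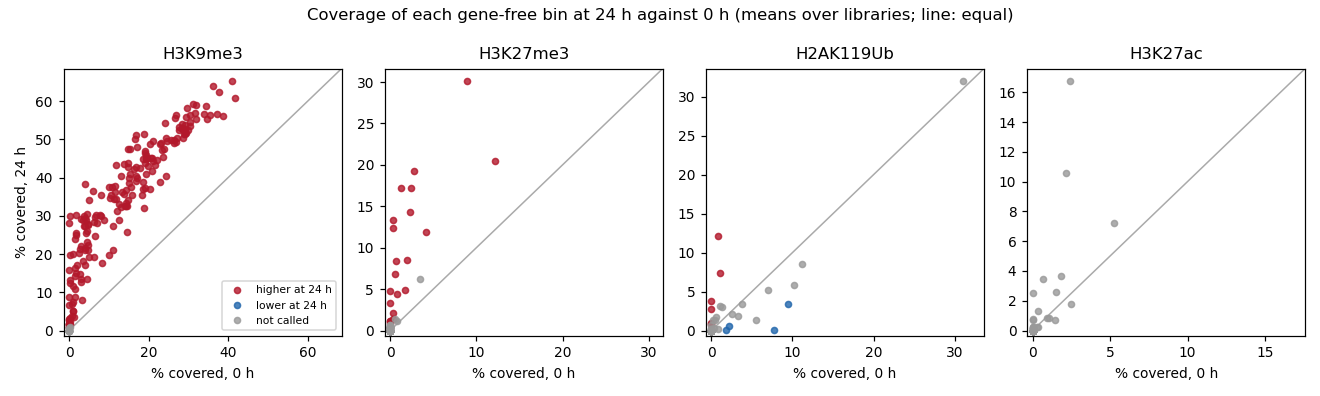
Mean percent covered in each gene-free bin at 24 h (vertical axis) against 0 h (horizontal axis), for H3K9me3, H3K27me3, H2AK119Ub and H3K27ac. For H3K9me3 202 of 210 bins lie above the line of equality. For H3K27me3 42 lie above it and 168 are at 0 at both times, and H2AK119Ub has 17 bins above and 13 below.

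The fullest H3K9me3 bin lay between Slitrk1 and Slitrk6, which encode synaptic membrane proteins, at 109 to 110 Mb of chromosome 14. It was covered to 19.3, 58.7, 48.5 and 36.9% at 0 h, 55.5, 56.9, 62.6 and 66.4% at 12 h and 64.5, 63.9, 68.8 and 63.8% at 24 h. The second 0 h library overlapped the 12 h values, and all 0 h values lay below those at 24 h (difference 24.4 points, SE 8.03, limma adjusted p = 0.0177; 0.0605 without the 0 h library of replicate 4). When each library was scaled to the antibody's mean total coverage, the direction turned (-59.7 scaled points, limma adjusted p = 0.000407). The bin thus held a smaller share of the longer 24 h lists, while its own coverage was higher. In every 24 h library 59 stretches of this bin, 456 kb in sum, were covered. Next came 113 Mb of chromosome 10, between Atxn7l3b and Trhde (36.2, 59.1 and 63.9% at 0, 12 and 24 h), and 107 Mb of chromosome 14, between Trim52 and Slitrk1 (37.8, 58.5 and 62.3%), with limma adjusted p of 0.00272 and 0.011. After scaling the share of both was lower at 24 h than at 0 h, by -52.3 scaled points (limma adjusted p = 0.00479) and -52.2 scaled points (adjusted p = 0.000258).

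The largest H3K9me3 gain was at 159 to 160 Mb of chromosome 2, between the helicase gene Dhx35 and the predicted gene Gm826. Coverage was 0, 11.6, 3.05 and 1.20% at 0 h, 28.4, 32.0, 36.2 and 33.8% at 12 h and 35.6, 31.7, 46.2 and 40.0% at 24 h. The 0 h libraries lay apart from all later ones (34.4 points, SE 3.66, limma adjusted p = 1.18e-07), and the bin stayed higher after scaling to total coverage (adjusted p = 3.42e-05). Next came 147 Mb of chromosome 3, between Ttll7 and Adgrl2, with 9 lncRNA genes (16.9, 43.8 and 51.1%), and 97 Mb of chromosome 12, between Flrt2 and Galc (16.6, 42.9 and 50.0%). Their rises of 34.3 and 33.4 points passed limma (adjusted p = 4.26e-06 and 2.18e-05) but not after scaling, where the change was -4.48 points in the bin of chromosome 3 (adjusted p = 0.331) and 0.34 points in that of chromosome 12 (adjusted p = 0.958).

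The leading H3K27me3 bin lay between Ets1, which encodes a lymphoid transcription factor, and Kirrel3, at 33 to 34 Mb of chromosome 9. It was covered to 4.23, 4.94 and 17.6% at 0 h, 22.2, 16.7 and 15.1% at 12 h and 30.2, 28.3, 27.2 and 34.9% at 24 h. The 24 h libraries stood above all others (21.2 points over 0 h, SE 4.03, limma adjusted p = 9.4e-05). After scaling the change was -4.68 points (adjusted p = 0.106). At 24 h 22 stretches, 218 kb in sum, were covered in every library, the longest at chr9:33504728-33526918, and the Gm27166 promoter printed above lies in this bin. H3K9me3 covered 0% of it at 0 h and 1.25 to 1.96% at 24 h.

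A gain of both Polycomb marks was seen at 35 to 36 Mb of chromosome 1, between Plekhb2 and Hs6st1, a heparan sulfate sulfotransferase gene. H3K27me3 covered 1.24, 1.57 and 5.38% at 0 h, 8.25, 4.72 and 5.16% at 12 h and 19.7, 14.1, 19.0 and 24.3% at 24 h (16.5 points, SE 2.56, limma adjusted p = 6.55e-06). H2AK119Ub covered 0.896, 0.628, 0.850 and 0.798% at 0 h, 17.2, 22.5 and 11.7% at 12 h and 20.5, 11.6, 9.64, 4.06 and 14.9% at 24 h (11.3 points, SE 3.06, limma adjusted p = 0.0039). All 0 h values of H2AK119Ub lay under all later ones. The T cell receptor alpha bin at 53 Mb of chromosome 14, with 83 V segments, gained H3K27me3 too: 0.504, 0 and 3.17% at 0 h, 8.21, 5.91 and 3.10% at 12 h and 15.8, 15.8, 16.5 and 20.6% at 24 h (16.0 points, SE 2.22, limma adjusted p = 3.55e-06). Both H3K27me3 gains passed after scaling (adjusted p = 0.0431 and 0.00547), and so did that of H2AK119Ub (adjusted p = 4.84e-06).

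In the bin at 94 to 95 Mb of chromosome 14, by the protocadherin gene Pcdh9, H2AK119Ub and H3K27me3 moved apart. H2AK119Ub covered 7.87, 10.1, 6.58 and 6.07% at 0 h, 0.715, 2.25 and 0.556% at 12 h, and 0, 0, 0.406, 0 and 0% at 24 h, with no overlap of 0 h and later values (-7.59 points, SE 0.988, limma adjusted p = 0.000312). H3K27me3 there covered 0, 0 and 2.23% at 0 h, 3.26, 2.25 and 0.532% at 12 h and 4.30, 3.97, 3.74 and 5.53% at 24 h (3.64 points, SE 0.849, limma adjusted p = 0.000738; after scaling, adjusted p = 0.322). At 0 h 4 stretches, 49.6 kb in sum, were under H2AK119Ub in every library, the longest at chr14:94634691-94652010, and at 24 h none was. The pair of marks was tested apart in each antibody, and the difference between their changes was not tested.

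H2AK119Ub also fell at 68 Mb of chromosome 16, between the adhesion gene Cadm2 and Speer2, to 3.34 ± 1.25% at 24 h (n = 5), against 9.46 ± 1.25% at 0 h (SD, n = 4; -6.12 points, limma adjusted p = 0.0189; 0.0547 without the 24 h library of replicate 5 and 0.0567 with replicate number as a block). At 67 Mb of chromosome 4, between the endotoxin receptor gene Tlr4 and Brinp1, 1 of 5 libraries at 24 h had a peak, against 4 of 4 at 0 h with 1.07 to 2.84% (-1.68 points, limma adjusted p = 0.00558). Its rise at 21 Mb of chromosome 3, between Agtr1b and Tbl1xr1, was to 0.936 to 8.26% at 24 h, against 0% in all 4 libraries at 0 h (limma adjusted p = 0.0202).

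The bin next to Myc, a growth regulator induced in activated B cells, was the fullest for H3K27ac. This bin, at 62 to 63 Mb of chromosome 15, overlaps the lncRNA gene Pvt1. H3K27ac covered 0.878, 3.58 and 2.80% at 0 h, 21.02, 29.4 and 15.6% at 12 h and 24.5, 9.33 and 16.4% at 24 h. All stimulated values lay above all unstimulated ones, but the change did not pass limma on the percent scale (14.3 points, SE 4.48, adjusted p = 0.234), and it did after scaling to total coverage (adjusted p = 0.00168) and on a log2 scale (adjusted p = 9.22e-05). A single stretch of Pvt1, chr15:62163468-62172247, was under H3K27ac in every 0 h library, and 21 and 19 stretches, 141 and 90.8 kb in sum, in every library at 12 and 24 h. H2AK119Ub in this bin was 0.932, 2.52, 0 and 0.941% at 0 h, 4.69, 6.04 and 2.31% at 12 h and 17.9, 3.51, 6.06, 2.43 and 7.12% at 24 h (6.31 points, SE 2.17, limma adjusted p = 0.047), and H3K9me3 was 0 in all 12 libraries. The H2AK119Ub call was lost in 6 of 12 fits that left out a library, after scaling (2.67 points, adjusted p = 0.0897), with no filter on bins (adjusted p = 0.0598) and with the stronger peaks of each list (1.53 points, adjusted p = 0.305). The other H3K27ac-rich bins, at 68 Mb of chromosome 6 (2.16, 16.2 and 10.6% at 0, 12 and 24 h) and 21 Mb of chromosome 3 (5.24, 9.48 and 7.20%), did not pass limma (adjusted p = 0.234 and 0.445). The bin at 68 Mb of chromosome 6 did pass after scaling (adjusted p = 0.0198), on the log2 scale (adjusted p = 0.00338) and in 3 fits that left out a library.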

How the data were processed

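CUT&RUN peak lists of 61 libraries were analysed. Per the submitters' processing notes, reads were handled with Trimmomatic 0.32, Bowtie2 2.3.4.1, Picard and deepTools 3.5.1 on mm10. The file names record SEACR calls, "norm relaxed" for the histone marks and "stringent" with the top 0.01 of regions for Suz12 and Ring1B. The authors' 6 deposited columns give a peak's position, total signal, highest signal and its region. Only positions entered the main measure, and signal served to rank or match peaks. Titles of the H3K9me3 libraries spell the mark otherwise than their antibody label, which was used.

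Overlapping peaks were merged and covered bases summed per bin with Python 3.11.15, numpy 2.4.6 and pandas 2.3.3. Ratios were compared as log2 values and percentages as log2(percent + 0.01), by exact permutation of times, exact sign flips over libraries and exact permutation of antibodies within times, with Benjamini-Hochberg adjustment and a threshold of 0.05. Bins with a peak in at least 3 libraries were tested with limma 3.58.1 (moderated F, trend and robust, R 4.3.3), and called higher or lower if the contrast also passed unadjusted. Unless a pair of times is named for a test, each p of change over time is of the test over the 3 times. The change printed beside it is 24 h minus 0 h. Named bins were the 3 fullest at 24 h, and the 3 largest rises and falls among called bins, per antibody. The 8 bins without H3K9me3, the V segment bins and other marks in a named bin were chosen after their values were seen.

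On simulated data with the real bins, limma found 48 (H3K27me3) to 98 (Suz12) of 100 bins changed by 5 points, and 99 (H3K9me3) or 100 of 100 changed by 20. Members and lists were chosen with earlier results of these data known. Promoters and microRNAs of chromosome 18, which has 11 gene-free bins with 37 lncRNA genes and 1 microRNA gene, were not analysed here. Libraries are numbered as biological replicates in the labels, and whether numbers are shared by animals across groups is not given. With depth unknown, no counting intervals are given.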

Additional observations from a re-analysis of the deposited data

Results flagged for a closer look

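Of 55 groups of 4 or 5 libraries examined for an outlying value, 5 had one, where chance gives about 1 in 20. For H3K9me3 at 24 h, library 3 covered 35.8% of the gene-free bins (median of the others 31.5%), and the same library covered 68.8% of the bin at 109 Mb of chromosome 14 (others 63.9%). For H3K27me3 at 24 h, library 4 covered 20.6% of the T cell receptor alpha bin at 53 Mb of chromosome 14 (others 15.8%). For H2AK119Ub at 24 h, library 3 covered 0.406% of the bin at 94 Mb of chromosome 14 and library 1 covered 0.615% of the bin at 67 Mb of chromosome 4, where the other 4 libraries had 0.

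The effect of time differed between gene-free and other bins by a test of the ratio over the 3 times. This held for H2AK119Ub (exact permutation adjusted p = 0.000433) and H3K9me3 (adjusted p = 0.000519). The log2 changes of the ratio from 0 to 24 h were -1.81 and -0.67. Alone, 24 h against 0 h passed the same test for H2AK119Ub (adjusted p = 0.0476) and not for H3K9me3 (adjusted p = 0.0857).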

How the results depend on the processing

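The comparisons of gene-free with other, interior with edge, and lncRNA-bearing with lncRNA-free bins kept direction and call in all 64, 16 and 16 alternatives and in all 61 fits each that left out a library. For the interior bins this says nothing of H3K27me3, H2AK119Ub and H3K27ac, which were at 0 there in every library. The H2AK119Ub and H3K9me3 ratios over time also kept direction and call (leave-one-out log2 changes -1.89 to -1.75 and -0.73 to -0.61). Alone, 24 h against 0 h for H2AK119Ub lost its call in 9 of 12 leave-one-out fits (adjusted p = 0.0857), where the smallest possible p is larger.

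The H3K27me3 ratio over time turned negative with the stronger peaks of each list (-0.0757), equal lengths (-0.35), bins with no lncRNA gene either (-0.83), a pseudocount of 0.1 (-0.40) and matched minimum signal (-0.0149). It passed with no lncRNA gene (adjusted p = 0.04) and with that pseudocount (adjusted p = 0.0257). It ranged from -0.0846 to 0.0907 without one library, and rose in 500 kb bins (0.66, adjusted p = 0.0019). The H3K27ac ratio turned negative with the stronger peaks (-0.11), no lncRNA gene (-0.22), 500 kb bins (-0.36), a pseudocount of 0.1 (-0.30) and without V segment bins (-0.0865), with 0.0014 to 0.27 without one library (it passed without replicate 1 of 0 h). The Suz12 ratio turned positive with the stronger peaks (0.13), with -0.62 to -0.0217 without one library (it passed without replicate 1 of 0 h). The Ring1B ratio passed with no lncRNA gene (-1.09) and in 500 kb bins (-0.74), with -0.93 to -0.70 without one library (it passed, as did Ring1B coverage, without replicate 3 of 12 h). The cause was not tested.

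Coverage over time with lists of equal length was 0.98 for H3K27me3, 0.12 for H3K9me3 and -2.31 for H2AK119Ub. As peaks per Mb it was 0.96 for H2AK119Ub, 1.96 for H3K27ac and -0.80 for Ring1B, all past the threshold, and in 500 kb bins 0.25 for H2AK119Ub. Without one library it ranged from -0.38 to 0.21 for H2AK119Ub and -0.93 to -0.60 for Ring1B.

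Between antibodies, H3K27me3 minus H2AK119Ub lost its call with the stronger peaks (-0.51), equal lengths (-0.51), no lncRNA gene (-0.51), 500 kb bins (-0.34), matched minimum signal (-0.44) and without V segment bins (-0.29). H3K27me3 minus H3K27ac did with the stronger peaks (-0.10), equal lengths (-0.0241), a pseudocount of 0.1 (0.0877) and without V segment bins (0.13), and H2AK119Ub minus H3K27ac with the stronger peaks (0.41), equal lengths (0.49) and without V segment bins (0.43). Without one library H3K27me3 minus H2AK119Ub was -0.55 to -0.49, with the call lost without any of the 4 H2AK119Ub libraries of 0 h, and Suz12 minus Ring1B -0.0052 to 0.19.

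Scaling to total coverage gave 11 called gene-free bins for H3K27me3 (10 higher, 1 lower), 12 lower for H2AK119Ub, 58 higher and 81 lower for H3K9me3, and 4 called, 2 higher and 1 lower for H3K27ac. It reversed the change at chr9:33Mb (-4.68) and chr6:68Mb (-25.7) for H3K27me3, and at chr14:109Mb (-59.7), chr10:113Mb (-52.3), chr14:107Mb (-52.2) and chr3:147Mb (-4.48) for H3K9me3, in points at the antibody's mean coverage, with adjusted p of 0.000407, 0.00479 and 0.000258 for the first 3 of H3K9me3 and 0.00264 at chr6:68Mb. These reversals are of a bin's share of a library's coverage, on a scale that can exceed the whole bin. They are not losses of coverage. The stronger peaks left 3 bins higher for H2AK119Ub, and log2(percent + 1) gave 4 called and 3 higher for H3K27ac. Without one library 8 to 16 bins were called and 3 to 9 higher for H2AK119Ub, 0 to 4 called and 0 to 3 higher for H3K27ac (calls came without replicate 3 of 12 h and replicates 1 and 2 of 24 h), and 0 to 8 called and 0 to 1 lower for Suz12 (without replicate 2 of 12 h).

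With replicate number as a block, the H3K27me3 ratio changed by -0.0377, and coverage rose by 2.21 for H3K27me3 (adjusted p = 0.167) and 1.50 for H3K9me3 (adjusted p = 0.0556). Same-numbered libraries deviated together (r over 0.1) in 23 of 58 pairs and in no antibody throughout. With so few libraries per group, this cannot tell whether libraries of the same number share an animal. The block also lost the H2AK119Ub fall at 68 Mb of chromosome 16 (adjusted p = 0.0567). The matched minimum, the omission of V segment bins and the comparison with neighbouring bins were chosen after seeing the data. The unknown depth limits what an uncovered bin shows.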
